A study of Mus musculus with 34 samples.

Results

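Heat shock proteins and their partner chaperones were followed at the level of mRNA in mouse bone marrow-derived macrophages (BMDMs), cells grown from bone marrow with the growth factor CSF-1. Members were taken by gene symbol: every probe set whose symbol began with Hsp (then a, b, d, e, h or 9), with Dnaj, or with Cct and a digit, with 1 probe set kept per gene, the one of highest mean signal. The rule found 55 genes on 77 probe sets, of 8251 named genes on the array. The arrays were single-colour Affymetrix arrays whose MAS5 signals (a linear measure of hybridisation, summarised per probe set) had been scaled by the authors. Of the 55 genes, 51 reached a signal of 200 on at least 2 of the 32 grouped arrays and were tested; the other four, Dnajb5, Dnajb8, Hspa2 and Hspb1, were below 200 on all 32 arrays.

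The 32 arrays formed 16 groups. Resting BMDMs (4 arrays) had been grown for 7 days, per the labels with L-cell conditioned medium as the CSF-1 source, and their labels name no genotype. BMDMs for stimulation came from 3 genotypes, wild type, IL-10-/- and IL-6-/-, labelled as grown for 7 days in mCSF, and no mouse strain, age or sex was given. All cells were rested for 1 hour in DMEM, the medium, and the stimulated groups then received bacterial lipopolysaccharide (LPS, 100 ng/ml) alone for 45 or 180 min, LPS with IL-10 (10 ng/ml) for 45 or 180 min, or LPS with IL-6 (2 ng/ml) for 45 min. Each stimulated group held 2 arrays, named as biological replicates in the titles, except IL-6-/- cells with LPS alone, which had 1 array at each time. No stimulated group lacked LPS, so each cytokine was measured only on top of LPS, and 2 further arrays whose labels did not settle a group entered no comparison. The titles do not say whether replicates came from separate mice, so p-values measure the spread between these samples. The number of arrays limits the precision of every value.

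Heat shock proteins hold other proteins in a foldable state and help to refold or clear damaged ones. HSP70 proteins bind short greasy stretches of unfolded chains in a cycle driven by ATP; J-domain proteins (the Dnaj genes) bring clients to HSP70 and speed its ATP use, HSP110 proteins exchange its nucleotide, and HSP90 proteins take on late folding steps of kinases and receptors. The CCT ring folds actin and tubulin in the cytosol, HSP60 with its lid HSP10 folds proteins inside mitochondria, and BiP (Hspa5) and Grp94 (Hsp90b1) work in the endoplasmic reticulum. The cytosolic inducible genes are switched on by heat shock factor through repeats of GAA and TTC in their promoters, and the endoplasmic reticulum genes by the unfolded protein response. In macrophages LPS signals through Toll-like receptor 4, and IL-10 restrains much of the inflammatory response through STAT3.

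The promoters of some members on which the results turn are shown first, from RefSeq on build GRCm38.p6, as the 250 bases before the transcription start on the gene's own strand. Hspa1a and Hspa1b, the 2 stress-inducible cytosolic HSP70 genes, are shown because they gave the IL-10 and genotype results. The Hspa1a stretch is chr17:34972157-34972406 (minus strand) and that of Hspa1b is chr17:34959239-34959488 (minus strand). Capitals mark the 2-unit heat shock element GAANNTTC, at bases 104 to 97 before the start in both.
Hspa1a: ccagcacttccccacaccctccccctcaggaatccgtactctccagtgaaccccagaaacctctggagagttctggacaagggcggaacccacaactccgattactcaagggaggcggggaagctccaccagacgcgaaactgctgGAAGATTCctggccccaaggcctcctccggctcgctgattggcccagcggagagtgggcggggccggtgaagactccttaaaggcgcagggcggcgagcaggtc
Hspa1b: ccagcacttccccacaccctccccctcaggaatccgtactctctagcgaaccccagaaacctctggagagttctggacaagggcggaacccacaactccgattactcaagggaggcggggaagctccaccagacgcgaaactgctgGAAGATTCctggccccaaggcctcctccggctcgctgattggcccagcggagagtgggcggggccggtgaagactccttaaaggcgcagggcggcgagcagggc
The stretches are identical at 247 of 250 bases (98.8%). The genes are near-identical copies and are read here by 1 probe set each, so how signal divides between them is uncertain in every result below.

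Hspd1 (HSP60) and Hspe1 (HSP10) sit head to head and share 1 promoter. The 215 bases between their starts, chr1:55087933-55088147, are given on the plus strand, with Hspd1 leaving to the left and Hspe1 to the right. Capitals mark overlapping matches to the 3-unit heat shock element (GAA, TTC and GAA in a row with 2 bases between units), searched on both strands.
Hspd1-Hspe1: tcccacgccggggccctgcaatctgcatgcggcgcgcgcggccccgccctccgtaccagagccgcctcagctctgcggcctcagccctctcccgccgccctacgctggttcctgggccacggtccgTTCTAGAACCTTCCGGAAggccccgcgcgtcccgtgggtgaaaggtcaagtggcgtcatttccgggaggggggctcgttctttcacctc
The endoplasmic reticulum genes Hspa5 at chr2:34771840-34772089 (plus strand), Dnajc3 at chr14:118937682-118937931 (plus strand) and Hsp90b1 at chr10:86705445-86705694 (minus strand) are shown because they hold the same element and did not move alike. Capitals mark the ER stress element (CCAAT, then 9 bases of any kind, then CCACG) on either strand.
Hspa5: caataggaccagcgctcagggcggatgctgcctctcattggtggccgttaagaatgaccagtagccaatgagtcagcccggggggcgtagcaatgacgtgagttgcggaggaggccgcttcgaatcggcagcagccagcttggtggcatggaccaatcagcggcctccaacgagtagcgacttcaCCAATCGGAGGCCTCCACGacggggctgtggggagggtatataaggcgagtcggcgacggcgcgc
Dnajc3: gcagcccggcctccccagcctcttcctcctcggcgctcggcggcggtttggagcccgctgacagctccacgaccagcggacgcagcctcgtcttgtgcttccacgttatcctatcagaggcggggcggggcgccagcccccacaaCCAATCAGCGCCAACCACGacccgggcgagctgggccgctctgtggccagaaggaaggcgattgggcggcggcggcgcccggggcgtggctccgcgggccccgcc
Hsp90b1: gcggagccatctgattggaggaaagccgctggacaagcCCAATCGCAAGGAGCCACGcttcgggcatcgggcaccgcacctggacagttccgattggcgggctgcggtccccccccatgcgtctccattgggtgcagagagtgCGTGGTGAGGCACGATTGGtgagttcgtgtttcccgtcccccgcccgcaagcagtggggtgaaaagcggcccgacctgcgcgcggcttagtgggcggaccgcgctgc

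Promoter entries were found for 47 of the 55 members, each a window of 300 bases from 250 before the start to 50 from it, and motifs were searched on both strands. The 8 members without an entry were not searched: Cct4, Dnajc11, Dnajc2, Dnajc5, Hsp90aa1, Hspa8, Hspa9 and Hspb2. The 3-unit heat shock element was in the windows of 4 of 47 members (8.51%: Dnajb6, Hspd1, Hspe1 and Hsph1) and of 179 of 27025 genes (0.662%); the Hspd1 and Hspe1 windows share the same match. A 2-unit element, GAANNTTC or TTCNNGAA, was in 14 of 47 members (29.8%) and in 17% of all genes, and every 3-unit match holds 2-unit matches. The ER stress element was in 3 members (6.38%: Dnajc3, Hsp90b1 and Hspa5) and in 0.137% of all genes. The STAT-type letters TTCNNNGAA were in 3 members (6.38%: Cct5, Dnajc13 and Dnajc7) and in 9.55% of all genes. A match describes letters in a window and is not a measured binding site.

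The summed signal of 9 macrophage marker genes lay between 119012 and 168860 on all 32 arrays. Markers of stromal cells stood apart: the sum over 10 genes (collagens, Sparc, Lox and others) was 965 to 2686 on the resting arrays and 5567 to 11687 on the stimulated ones. Of the 9 that could be tested, 8 were higher in wild type cells at both LPS times than in resting cells (9.27% of all tested genes at 45 min and 14.6% at 180 min). Lox, Dcn, Postn, Sparc and Col5a2 had resting means of 61.85 to 93.98 and were tested only with stimulated arrays counted. That count is thus no support for a change. Thy1, the untested one, was 30.7 to 50.8 at rest, 101.8 and 105.2 in wild type cells with LPS at 45 min and at most 39 on every other stimulated array. Neutrophil markers (8 genes) summed to 468 to 3848 and lymphocyte markers (6 genes) to 405 to 1094. The deleted cytokine genes were not low in the cells labelled as lacking them: Il10 signal was 1512 to 10596 in IL-10-/- arrays and 2412.5 to 4512 in wild type ones, and Il6 signal was 427.5 to 8400 in IL-6-/- arrays and 209 to 4568 in wild type ones. Where these probe sets lie relative to the deleted parts is not given in the sources used here, so they check nothing, and genotypes are named below as the labels give them.

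Group means of a member differed by a median of 1.17 on the log2 scale between its highest and lowest group, against 1.23 over all 6063 tested genes. Changes throughout are of log2(signal + 50), which understates changes of low signals. Hspa1b had the widest spread (3.21), then Hspa1a (2.58) and Dnajb4 (2.31), and Dnajb11, a J-domain partner of BiP, the narrowest (0.41). Of the 51 tested members, 26 were highest in a 180-min group, 20 in a 45-min group and 5 in resting cells. These classes hold unequal numbers of groups, resting cells being a single one, and shares over all tested genes were not computed. The counts are thus not comparable with each other.

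**Figure D1:**
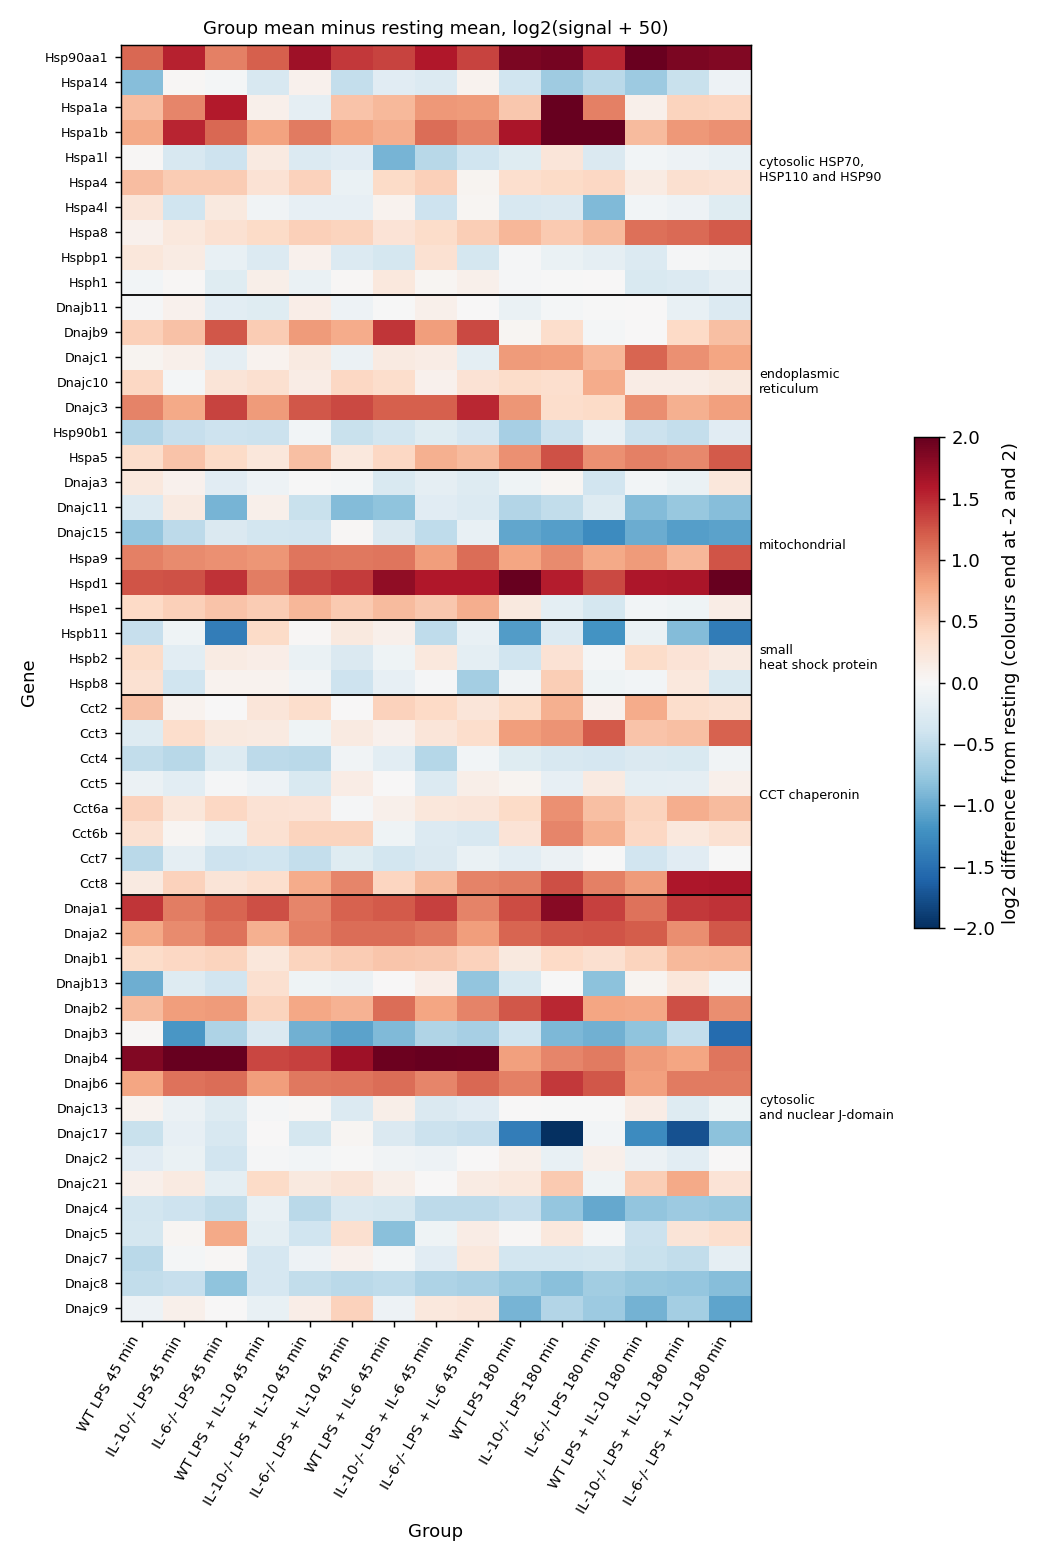
Mean log2(signal + 50) of the 51 tested members (rows, by role) in each of 15 stimulated groups (columns), as the difference from the mean of the 4 resting arrays, with red for higher and blue for lower. Hsp90aa1, Hspd1 and Dnaja1 are red in all 15 columns, Dnajb4 is darkest at 45 min, and Hspa1a and Hspa1b are darkest in IL-10-/- cells with LPS at 180 min.

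The first question the design addresses is what LPS did to wild type cells. At 45 min 10 of the 51 members were higher than in resting cells (9.27% of all tested genes were) and 4 were lower (8.38% of all tested genes); a member is called at an adjusted p under 0.05 in limma, with Benjamini-Hochberg adjustment over all 8224 tested probe sets. At 180 min 14 were higher (14.6% of all tested genes) and 5 lower (21.3%). The members' share lower at 45 min was near that background and their share lower at 180 min was below it. The median change over the 51 members was 0.18 at 45 min and 0.052 at 180 min on the log2 scale, against 0.016 and -0.099 over all tested genes. Resting and stimulated cells also differed in how the labels name their CSF-1 source and in the resting cells' missing genotype, so these cannot be told apart from LPS. The stromal markers given above moved with this contrast, and the neutrophil marker sum was 1241 to 3293 at rest and 965 to 1172 in the wild type LPS arrays; their part was not tested. In such bulk samples, fewer cells of a type and less RNA per cell cannot be told apart.

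Among the cytosolic HSP90 and HSP70 genes, Hsp90aa1, the stress-inducible HSP90, rose most steadily. Its signal was 1308, 1242, 1840 and 1686 on the 4 resting arrays, 3533 and 3262 in wild type cells at 45 min, and 4960.0 and 6529 at 180 min. All 28 stimulated arrays, at 3062 to 7108, lay above all 4 resting arrays. The rise was 2.22-fold at 45 min (log2 1.15 ± 0.21 SE, adjusted p = 3.98e-04) and 3.71-fold at 180 min (log2 1.89 ± 0.21, adjusted p = 1.36e-07). Of the other 9 tested members of this class, Hspa1b also passed at both times.

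Hspa1b signal was 154, 202, 204 and 288 in resting cells, 434 and 339 at 45 min, and 874 and 648 at 180 min. It rose 1.68-fold at 45 min (adjusted p = 0.0412), a call lost in 5 of the 6 fits that each left out 1 array, and 3.11-fold at 180 min (adjusted p = 1.43e-05), a call kept without any 1 array. Hspa1a was 284, 224, 193 and 186 in resting cells, 369.8 and 355 at 45 min and 277 and 419 at 180 min, and missed the threshold at both times (log2 0.62, adjusted p = 0.0532, and log2 0.54, adjusted p = 0.0581). Hspa1a passed at both times with a filter at 500 (adjusted p = 0.039 and 0.0421), no variance trend (0.0432 and 0.0449), averaged probe sets (0.0404 and 0.0422) and without resting replicate 1 (0.0256 and 0.0266), and at 180 min with quantile normalization (0.0334) and without 180-min replicate 1 (0.0339). Its 45-min arrays lay above the resting ones, and 1 of its 180-min arrays fell among them. Hspa8, the constitutive HSC70, was 4453 to 8156 at rest and 10283 and 9856 at 180 min, a 1.58-fold rise (adjusted p = 0.0279) that was lost in 4 of 6 such fits. Hspa4, of the HSP110 family, rose 1.53-fold at 45 min (adjusted p = 0.0342, lost in 4 of 6 such fits). Hsph1, the HSP110 gene whose window holds a 3-unit element, was 408 to 631 at rest and 424 to 542 in the wild type LPS arrays (log2 -0.054, adjusted p = 0.889, at 45 min). Hspa4l, Hspa1l, Hspa14 and Hspbp1, an HSP70 nucleotide exchange factor, passed at neither time, with log2 changes from -0.85 to 0.24.

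In mitochondria, Hspd1 passed at both times and Hspe1, which shares its promoter, at neither; the difference between them was not tested. Hspd1 was 813, 901, 819 and 436 at rest, 2238 and 1419 at 45 min and 2909.9 and 3526 at 180 min, and no stimulated array (1249 to 3526) reached down to the highest resting one. It rose 2.39-fold at 45 min (log2 1.26 ± 0.25, adjusted p = 9.12e-04) and 4.24-fold at 180 min (log2 2.08 ± 0.25, adjusted p = 3.67e-07); without wild type 45-min replicate 1 the 45-min value was 0.94 (adjusted p = 0.0602). Hspe1 was 1038, 1250.4, 901 and 1147 at rest against 1519 and 1360.1 at 45 min and 1367 and 1129.8 at 180 min, with log2 changes of 0.40 (adjusted p = 0.291) and 0.20 (adjusted p = 0.591). Hspa9, mortalin, the HSP70 of the import motor, rose 2.02-fold at 45 min (857 to 1419 at rest, 2350.1 and 1877 with LPS, adjusted p = 0.00104) and 1.72-fold at 180 min (adjusted p = 0.00381; log2 0.70, adjusted p = 0.0581, without wild type 180-min replicate 2). Dnajc15, a J-domain protein of the inner membrane, fell 1.70-fold and then 2.05-fold (adjusted p = 0.0426 and 0.00271), from 309.7 to 469 at rest to 133 and 190.4 at 180 min. The earlier call was lost in 3 of 6 fits and the later one without wild type 180-min replicate 1 (log2 -0.84, adjusted p = 0.0693). Another Hspd1 probe set did not pass (log2 -0.083 at 180 min, adjusted p = 0.918).

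The endoplasmic reticulum members split. Hspa5 was 5151, 3607, 4703 and 4861 at rest, 5787 and 5818 at 45 min and 9189 and 8105 at 180 min, a 1.89-fold rise at 180 min (log2 0.92 ± 0.20, adjusted p = 8.98e-04) that did not pass at 45 min (log2 0.35, adjusted p = 0.248). Dnajc3, the p58IPK co-chaperone, rose 1.99-fold at 45 min (197 to 276 at rest, 399 and 700.1 with LPS, adjusted p = 0.00643) and 1.84-fold at 180 min (adjusted p = 0.00674), though its 2 other tested probe sets had changes of -0.33 and -0.26 on the log2 scale at 45 min that did not pass. Without replicate 2 of the time concerned, the Dnajc3 changes were 0.62 (adjusted p = 0.211) and 0.66 (adjusted p = 0.14). Hsp90b1, with 2 ER stress elements in its window, fell by 0.58 on the log2 scale at 45 min (adjusted p = 0.0405, lost in 3 of 6 fits) and 1.58-fold at 180 min (adjusted p = 0.00975), from 4026 to 4845 at rest to 3242 and 2287 at 180 min; without replicate 2 the 180-min change was -0.41 (adjusted p = 0.241). Dnajc1, a J-domain protein of this membrane, was 185 to 348 at rest, 256 and 265 at 45 min and 521 and 457 at 180 min, so that only its 180-min change passed (1.81-fold, adjusted p = 0.0032; log2 0.77, adjusted p = 0.0519, without replicate 1). Dnajb9 (ERdj4), Dnajb11 (ERdj3) and Dnajc10 (ERdj5) passed at neither time, with log2 changes of 0.48, -0.03 and 0.41 at 45 min.

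**Figure D2:**
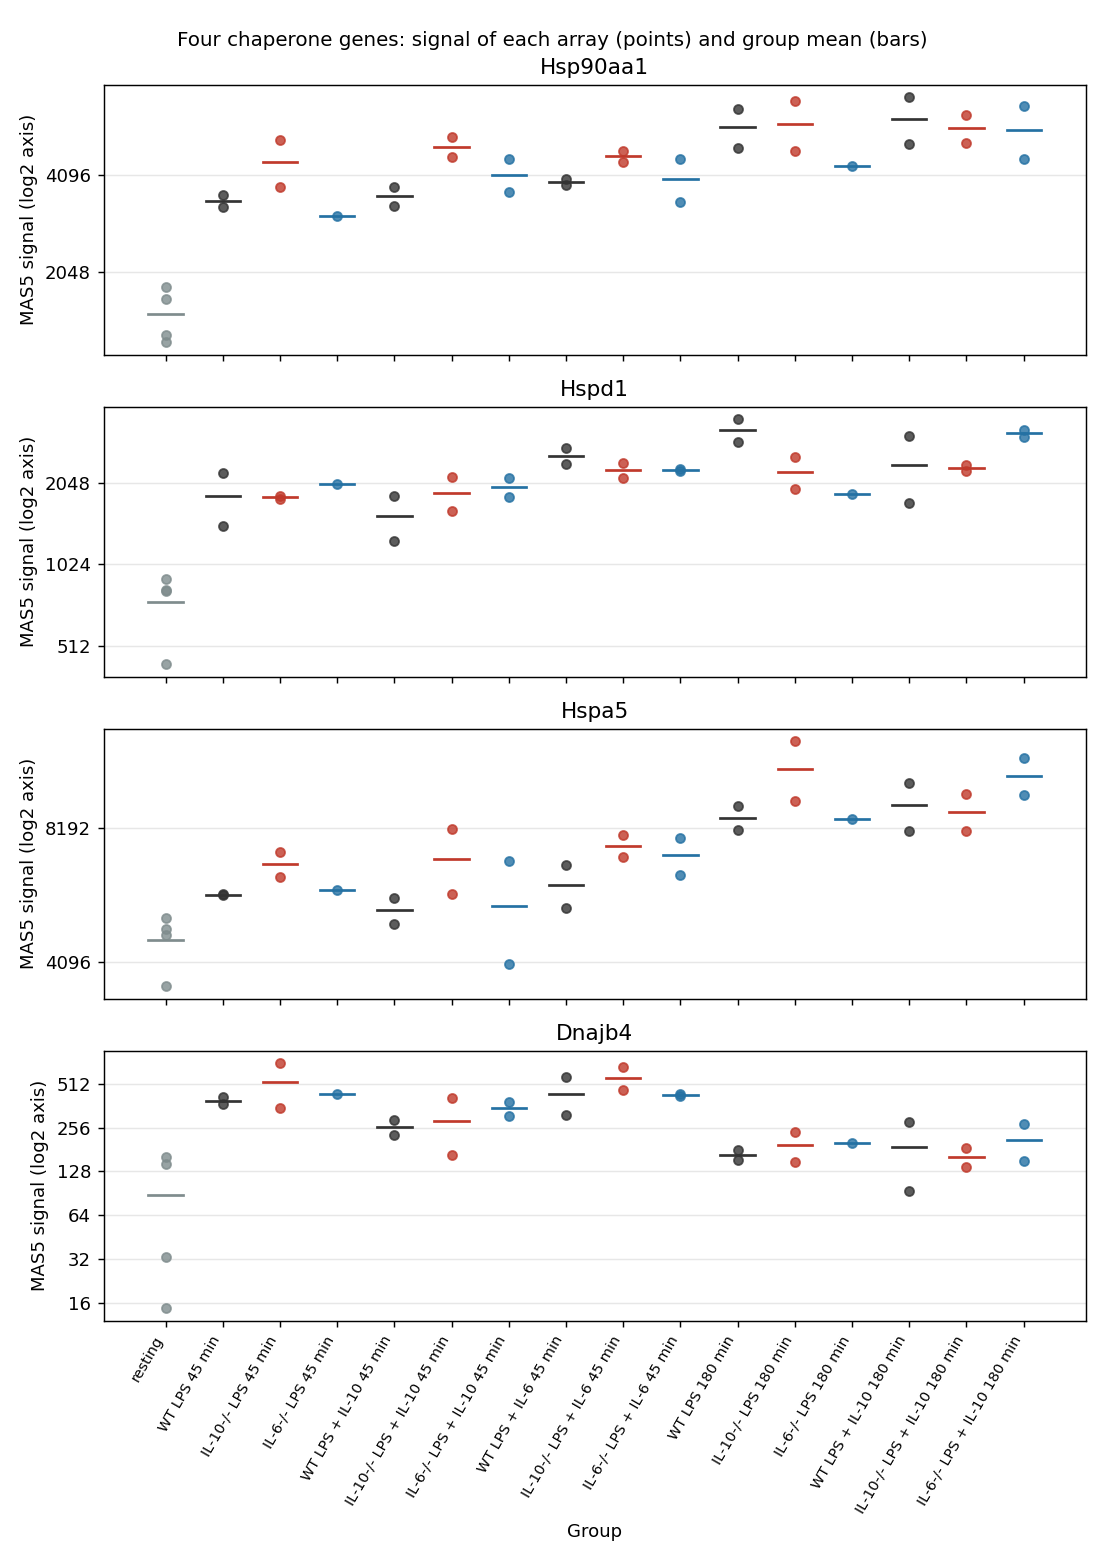
MAS5 signal of Hsp90aa1, Hspd1, Hspa5 and Dnajb4 on each array (points, log2 axis) and group means (bars) for resting cells and the 15 stimulated groups, coloured by genotype. Hsp90aa1 and Hspd1 lie above the resting arrays in every group, Hspa5 is highest in the 180-min groups, and Dnajb4 is highest in the 45-min groups with LPS alone or LPS plus IL-6.

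The largest 45-min rise of any tested member was in a cytosolic J-domain gene. Dnajb4, an HSP40, was 143, 161, 14.7 and 33.1 at rest, 368.5 and 413 at 45 min and 153 and 178 at 180 min, so the 45-min arrays stood above all resting ones while a 180-min array lay inside their range. The change was 3.62-fold at 45 min (log2 1.86 ± 0.43, adjusted p = 0.00402) and did not pass at 180 min (log2 0.82, adjusted p = 0.152). Dnajb4 was below 200 on all 4 resting arrays and was tested only through stimulated arrays (19 reached 200). Its rank and its place among the members higher than at rest are thus no support for a change. Dnaja1, another HSP40, was 778, 624, 997 and 740.5 at rest, 2164 and 2186 at 45 min and 2009 and 1950.2 at 180 min, rising 2.70-fold and 2.46-fold (adjusted p = 1.73e-07 and 2.61e-07). Dnajb6 rose 1.72-fold and 2.01-fold (adjusted p = 0.00101 and 1.62e-05) and Dnaja2 1.69-fold and 2.23-fold (adjusted p = 0.0206 and 2.26e-04). Dnajb2 was 20.4 to 99.7 at rest, 125.3 and 96.1 at 45 min and 243.9 and 150.7 at 180 min; it reached 200 on 4 arrays, all at 180 min, so it was tested only through the groups where it is high, and its place among the 14 higher members at 180 min and the 12 of the time comparison is no support for a change. Dnajb1, the classical heat-inducible HSP40, was 263 to 565 at rest and 372 to 592 in the wild type LPS arrays (log2 0.38, adjusted p = 0.284, and 0.19, adjusted p = 0.573). Dnajc8, a nuclear J-domain protein, fell 1.40-fold and 1.67-fold (adjusted p = 0.0199 and 2.04e-04), and Dnajc9, a histone co-chaperone, 1.90-fold at 180 min (adjusted p = 0.00866). Dnajc17 fell 2.60-fold at 180 min (adjusted p = 0.0362) although its arrays, 298 and 48.4, overlapped the resting range of 274 to 1008.

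Several of these J-domain calls rested on 1 array. Without wild type 45-min replicate 2, the 45-min changes were 1.78 for Dnajb4 (adjusted p = 0.0534) and -0.38 for Dnajc8 (adjusted p = 0.209). Without wild type 45-min replicate 1, they were 0.62 for Dnajb6 (adjusted p = 0.0532) and 0.50 for Dnaja2 (adjusted p = 0.299), and Dnaja2 was also lost without resting replicate 2 (0.64, adjusted p = 0.0546). At 180 min Dnajc9 was lost without replicate 2 (-0.86, adjusted p = 0.0806). Dnajc17 was lost without 180-min replicate 2 (-0.47, adjusted p = 0.635) and without resting replicate 4 (adjusted p = 0.115). The Dnaja1 calls held in all 6 fits at both times.

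The symbol rule took 8 CCT members and left out Tcp1, another subunit gene on the array. Of the 8, 1 fell at 45 min (8.38% of all tested genes) and 2 rose at 180 min (14.6%), and differences between subunits were not tested. At 45 min Cct7 fell 1.46-fold (1208 to 1513 at rest, 993 and 776 with LPS, adjusted p = 0.0309) and the other seven did not pass; without 45-min replicate 2 its change was -0.38 (adjusted p = 0.317), and without resting replicate 3 it was -0.48 (adjusted p = 0.0674). At 180 min Cct3 rose 1.78-fold (756 to 1160.3 at rest, 2075 and 1484 with LPS, adjusted p = 0.00861; log2 0.60, adjusted p = 0.168, without replicate 1) and Cct8 2.04-fold (375 to 534 at rest, 1345 and 743 with LPS, adjusted p = 0.0393, lost in 4 of 6 fits). Cct2, Cct4, Cct5, Cct6a, Cct6b and Cct7 had log2 changes between -0.24 and 0.38 at that time and did not pass. Of the tested members with an Hspb symbol (Hspb2, Hspb8 and Hspb11), 0 were called by limma at either time, with 0 at an unadjusted p under 0.05. Their log2 changes ran from -1.11 to 0.37, the lowest for Hspb11, which reached 200 on 8 arrays. Hspb1 (HSP25) was between 8.7 and 123 on every array.

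Over all 16 groups, 6 of the 51 members had every one of 28 stimulated arrays above every resting array (Hsp90aa1, Hspd1, Hspa9, Dnaja1, Dnaja2 and Dnajb6; 3.76% of all tested genes had this), and 1, Dnajc8, had every stimulated array below (4.32% of all tested genes). Dnajc8 signal was 2749 to 3879 at rest and 1717 to 2539.6 in stimulated cells. The same limits of the resting group apply.

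Changes between 45 and 180 min of LPS compare stimulated groups alone. In wild type cells the summed stromal markers were 9218 to 9721 at 45 min and 8229.5 to 8477 at 180 min, with 0 of 9 called. Of 5 tested neutrophil markers only S100a8 was called (higher at 180 min, log2 1.52), while Elane, Camp, Mmp8 and S100a9 were at -0.11 to -0.74. Among macrophage markers the group mean of Msr1 went from 464 to 5494 and that of Csf1r from 26790 to 18270. The part of these markers was not tested. In wild type cells 4 members were higher at 180 min (7.19% of all tested genes) and 0 lower (8.05%), with 10 at an unadjusted p under 0.05: Cct3 (2.13-fold, adjusted p = 0.00839), Hspa1b (1.85-fold, adjusted p = 0.0415), Dnajc1 (1.73-fold, adjusted p = 0.0337) and Hsp90aa1 (1.67-fold, adjusted p = 0.0439). Of 4 fits that each left out 1 array, all lost the Hspa1b and Dnajc1 calls and 3 lost that of Hsp90aa1. The Cct3 call was lost without 45-min replicate 2 (log2 1.07, adjusted p = 0.0574) and without 180-min replicate 1 (0.86, adjusted p = 0.126). When the probe sets of each gene were averaged, the Hsp90aa1 change turned to -0.064 (adjusted p = 0.917); the other Hsp90aa1 probe set had a mean signal of 44.6, below the limit for testing.

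In IL-10-/- cells 6 members were higher at 180 than at 45 min (6.83% of all tested genes) and 1 lower (11.8%). Between these times the summed neutrophil markers were 699 to 869 at 45 min and 1163 to 1254 at 180 min, and the stromal ones 10006 to 10389.7 and 9157 to 9425, with no overlap, and of the macrophage markers Msr1 was higher (log2 2.13) and Csf1r and Cd68 lower (-0.74 and -0.70); their part was not tested. Hspa1b was 840.3 and 569.7 at 45 min and 2753 and 1979 at 180 min, a 3.21-fold rise (adjusted p = 1.63e-04). Hspa1a was 498 and 462 at 45 min and 1405 and 1320.4 at 180 min, a 2.67-fold rise (adjusted p = 2.31e-04), and in wild type cells its change was -0.075 on the log2 scale (adjusted p = 0.897); the difference between genotypes in this time change was not tested. Dnaja1 rose 1.73-fold (1733 and 1534 to 2976 and 2729.7, adjusted p = 0.00216). The 3 calls named so far held without any 1 array. Hspa5 (1.62-fold, adjusted p = 0.0405) lost its call in 3 of 4 such fits, and Hspb8, which works with Bag3 (1.87-fold, adjusted p = 0.0471), Dnajc1 (1.67-fold, adjusted p = 0.0424) and Dnajc17 (3.88-fold lower, adjusted p = 0.0205) in all 4.

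A mean over 6 such differences, LPS and LPS plus IL-10 in each of the 3 genotypes, was added after the data had been seen and uses every grouped array of those arms. It called 12 members higher at 180 min (16.1% of all tested genes) and 9 lower (27.8% of all tested genes). Its rises were led by Dnajc1 (1.80-fold, adjusted p = 6.71e-07), Cct3 (1.73-fold, adjusted p = 9.27e-06), Cct8 (1.68-fold, adjusted p = 0.0029), Hspa5 (1.58-fold, adjusted p = 1.05e-05), Hspa1b (1.48-fold, adjusted p = 7.97e-04) and Hspa8 (1.47-fold, adjusted p = 3.50e-04). Of the 8 CCT members 4 rose (Cct3, Cct8, Cct6a and Cct7) and 0 fell. Log2 changes of the 8 ran from 0.07 upward with a median of 0.24, against -0.051 over all tested genes. Hspd1 rose 1.34-fold while Hspe1 fell by 0.59 on the log2 scale (adjusted p = 0.00791 and 5.78e-04). The other falls were Dnajc17 (2.04-fold), Dnajc9 (1.85-fold), Dnajb4 (1.76-fold), Dnajc15 (1.63-fold), Dnajb9 (1.42-fold), Dnajc3 (1.32-fold), Dnajc4 (1.30-fold) and Dnajc8 (1.19-fold). Of 20 fits that each left out 1 array, 13 lost the Dnajb9 call, 13 that of Cct7 and 16 that of Dnajb2, and the other 18 calls held in all 20. Of 5 tested neutrophil markers only S100a8 was called here too (higher at 180 min, log2 2.28), and its part was not tested.

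**Figure D3:**
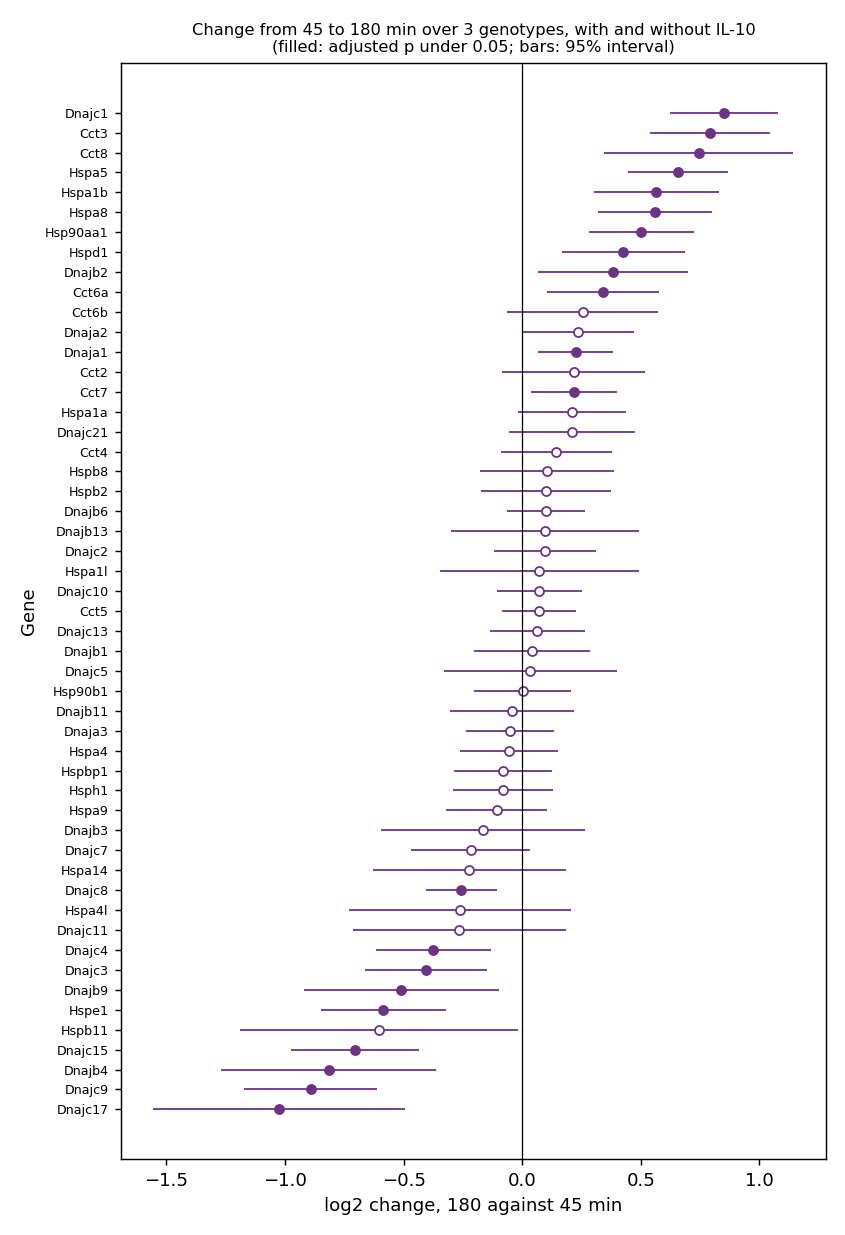
Log2 change from 45 to 180 min (x axis) of the 51 tested members (rows), as the mean of 6 differences over 3 genotypes with LPS or LPS plus IL-10, with 95% intervals from limma; filled points have an adjusted p under 0.05. The 12 filled points on the right are led by Dnajc1 and Cct3, and the 9 on the left by Dnajc17 and Dnajc9.

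The second question is what IL-10 added to LPS did, averaged over 3 genotypes. At 180 min 0 members were higher (2.34% of all tested genes) and 2 lower (1.96%), and these were the inducible HSP70 pair. Hspa1b fell 2.93-fold (log2 -1.55 ± 0.18 SE, 95% interval -1.92 to -1.18, adjusted p = 3.32e-06) and Hspa1a 1.98-fold (log2 -0.99 ± 0.16, adjusted p = 1.95e-04), and both calls held without any 1 array and when IL-6-/- cells were left out of the mean. The median change over the 51 members was -0.013, against -0.007 over all tested genes. Summed stromal markers at 180 min also stood apart in each genotype, higher with IL-10: 8229.5 to 8477 without and 9353 to 10903 with it in wild type, 9157 to 9425 against 9771 to 10422 in IL-10-/-, and 5567 (1 array) against 5956 to 5958 in IL-6-/- cells, with 0 of 9 called. Of 5 tested neutrophil markers only S100a8, a calcium-binding alarmin, was called (higher, log2 1.91). Of 9 macrophage markers Mrc1, the mannose receptor, was called (higher, log2 1.13). Their part in the result was not tested.

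By array, Hspa1b at 180 min was 874 and 648 with LPS and 376.5 and 323 with IL-10 as well in wild type cells, 2753 and 1979 against 384 and 460.0 in IL-10-/- cells, and 1141 (1 array) against 509 and 370.1 in IL-6-/- cells. In all 3 genotypes every array with IL-10 lay below every array without it. Hspa1a was 277 and 419 against 209 and 269.6 in wild type, 1405 and 1320.4 against 368 and 271 in IL-10-/- and 489.5 against 308 and 319.5 in IL-6-/- cells, again with no overlap. Alone, IL-10-/- cells called 0 members higher (2.52% of all tested genes) and 2 lower (1.48%): Hspa1b 5.07-fold (adjusted p = 6.62e-06) and Hspa1a 3.86-fold (adjusted p = 1.18e-05). Wild type cells called 0 higher (0.0825% of all tested genes) and 0 lower (0.099%), with 2 members at an unadjusted p under 0.05, and Hspa1b at -1.01 on the log2 scale (adjusted p = 0.282). IL-6-/- cells, with 1 array lacking IL-10, called 0 higher (0.115%) and 0 lower (0.0825%), with 4 at an unadjusted p under 0.05, and Hspa1b at -1.30 (adjusted p = 0.167).

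Whether the IL-10 response differed between IL-10-/- and wild type cells was tested directly: 0 members were called higher (0.544% of all tested genes) or lower (0.148%), with 2 at an unadjusted p under 0.05. The difference was -1.50 for Hspa1a (95% interval -2.24 to -0.77, adjusted p = 0.0513) and -1.33 for Hspa1b (-2.18 to -0.49, adjusted p = 0.234). Hspa1a lay at the threshold: it passed with a pseudocount of 200, a filter at 500, no variance trend or averaged probe sets (adjusted p from 0.00757 to 0.0402) and without wild type LPS 180-min replicate 2 (0.0407). It did not pass with a pseudocount of 10, no filter, quantile normalization, a replicate block or any other array left out.

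**Figure D4:**
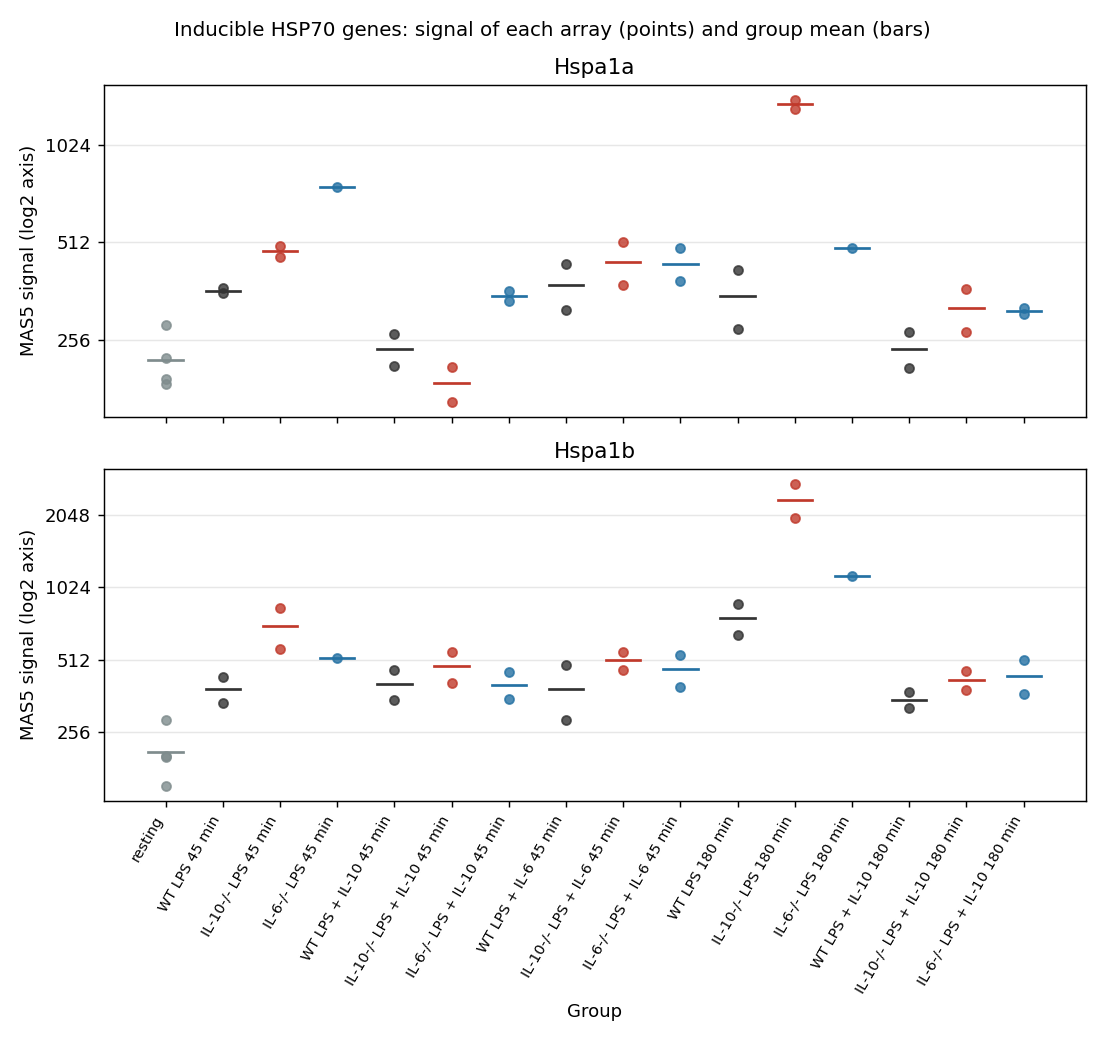
MAS5 signal of Hspa1a and Hspa1b on each array (points, log2 axis) with group means (bars) in resting cells and the 15 stimulated groups, coloured by genotype. The 2 IL-10-/- arrays with LPS at 180 min are the highest for both genes (1320.4 and 1405 for Hspa1a, 1979 and 2753 for Hspa1b), and those with IL-10 at 180 min are at 271 and 368, and 384 and 460.0.

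At 45 min IL-10 lowered 1 member in the mean of 3 genotypes (0.363% of all tested genes) and raised 0 (0.808%). This was Hspa1a, 1.87-fold lower (log2 -0.90 ± 0.16, adjusted p = 0.00101), which held without any 1 array. Its arrays were 369.8 and 355 without and 212 and 266 with IL-10 in wild type, 498 and 462 against 165 and 210.3 in IL-10-/-, and 756 (1 array) against 360.5 and 337 in IL-6-/- cells, with no overlap in any genotype. Within genotypes (tests added after the data had been seen), IL-10-/- cells called Hspa1a alone (2.24-fold lower, adjusted p = 0.0214, lost in all 4 fits that left out 1 array), against 0.165% of all tested genes lower and 0.462% higher. Wild type cells called 0 and 0 (0.363% higher and 0.165% lower of all tested genes), as did IL-6-/- cells (0.313% and 0.0825%), with 3 and 2 members at an unadjusted p under 0.05. Hspa1b did not pass at 45 min (log2 -0.26, 95% interval -0.63 to 0.11).

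The IL-10 effect at 180 min minus that at 45 min, also added after the data had been seen, called 0 members higher (0.66% of all tested genes) and 1 lower (0.709%). For Hspa1b the IL-10 effect was more negative at 180 min by 1.29 on the log2 scale (value -1.29 ± 0.26, adjusted p = 0.00683), and the call held without any 1 array. For Hspa1a the difference between times was -0.088 (95% interval -0.54 to 0.37, adjusted p = 0.999).

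Of the members that did not pass with IL-10, some had changes of a size near those called. At 45 min, in the mean of 3 genotypes, Hspb11 was at 0.84 (95% interval 0.01 to 1.67, adjusted p = 1) with overlapping arrays in IL-10-/- cells, and Dnajb4 at -0.54 (-1.18 to 0.10, adjusted p = 1), below 0 in each genotype. Hspa8, the constitutive HSC70, was higher on every IL-10 array than on every array without it at 180 min in each genotype (16072 and 11594 against 10283 and 9856 in wild type, 17018 and 11576 against 10286 and 8063 in IL-10-/-, 14587 and 15273 against 9877 in IL-6-/-), but missed the threshold in the mean (log2 0.55, 95% interval 0.21 to 0.89, adjusted p = 0.0656). It passed with a filter at 500 (adjusted p = 0.0467), with a replicate block (0.53, adjusted p = 0.0261), on leaving out replicate 2 of the IL-10 arm at 180 min in wild type (0.63, adjusted p = 0.0459) or in IL-10-/- cells (0.64, adjusted p = 0.0395). Hsp90aa1 (log2 0.13, adjusted p = 0.921), Hspd1 (0.10, adjusted p = 0.978) and Hspa5 (0.03, adjusted p = 0.998) did not pass at 180 min.

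**Figure D5:**
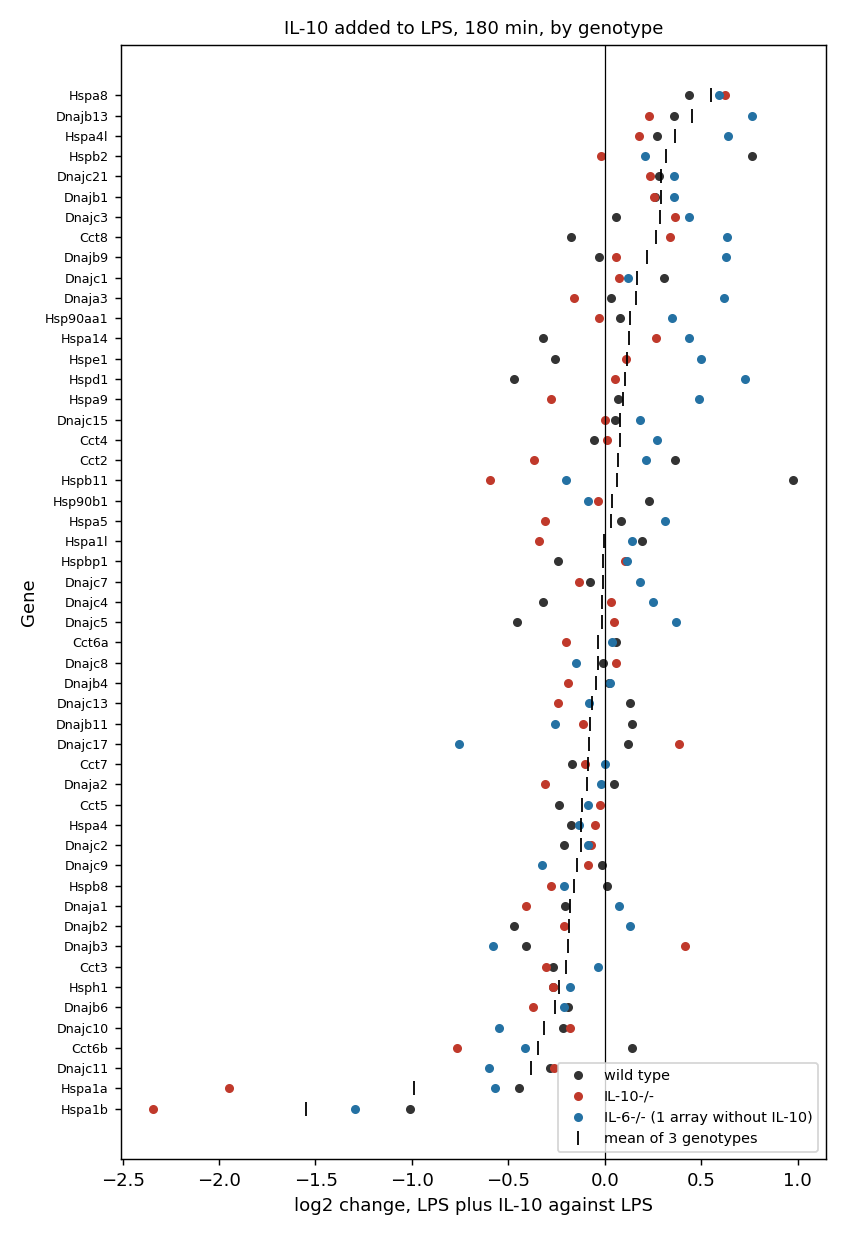
Log2 change with IL-10 added to LPS at 180 min (x axis) for the 51 tested members (rows), with 1 point per genotype and a tick at the mean of the 3; the IL-6-/- value rests on 1 array without IL-10. Hspa1b and Hspa1a stand at the bottom, at means of -1.55 and -0.99, and Hspa8 at the top, at 0.55.

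IL-6 added to LPS for 45 min called 0 members higher (0.61% of all tested genes) and 0 lower (0.0165%), with 1 at an unadjusted p under 0.05, and log2 changes from -0.40 to 0.46. Hspa1a changed by -0.27 (95% interval -0.59 to 0.054). IL-10 against IL-6 at 45 min, tested directly after the data had been seen, called 0 and 0 (0.099% higher and 0.181% lower of all tested genes), with 4 at an unadjusted p under 0.05; for Hspa1a the difference was -0.63 (95% interval -0.93 to -0.33, adjusted p = 0.0784), so the cytokines were not shown to differ on it.

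The third question is genotype. With LPS at 180 min, arrays labelled IL-10-/- had 2 members higher than wild type (1.01% of all tested genes) and 0 lower (2.06%): Hspa1a 3.61-fold (1405 and 1320.4 against 277 and 419, log2 1.85 ± 0.25, adjusted p = 3.62e-05) and Hspa1b 2.97-fold (2753 and 1979 against 874 and 648, log2 1.57 ± 0.29, adjusted p = 0.00172). Without wild type replicate 2 the Hspa1b difference was 1.37 (adjusted p = 0.0585), and without IL-10-/- replicate 1 it was 1.34 (adjusted p = 0.057). The 2 IL-10-/- arrays of this comparison are also those against which IL-10 addition was measured, so the results share them. Summed stromal markers were 9157 to 9425 in the IL-10-/- and 8229.5 to 8477 in the wild type arrays, with 0 of 9 called. Lymphocyte sums were 688.5 to 771.3 and 851.4 to 878.4. Macrophage sums overlapped (141616 to 154257 and 138074 to 148896). Among macrophage markers, Adgre1 was 8704 and 7598 in IL-10-/- against 4872.5 and 3415 in wild type arrays, and Mrc1 2190.5 and 1427 against 3843 and 2992. The part of these markers was not tested. With IL-10 supplied at 180 min 0 members were called in either direction (0.099% higher and 0.099% lower of all tested genes; 0 at an unadjusted p under 0.05), with Hspa1a at 0.35 and Hspa1b at 0.24. At 45 min, over LPS, LPS plus IL-10 and LPS plus IL-6, 0 were higher (0.676%) and 0 lower (0.528%), with 5 at an unadjusted p under 0.05 and Hspa1b at 0.46 (adjusted p = 0.265).

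IL-6-/- cells gave no call against wild type. Summed stromal markers were 5567 to 6445 on the IL-6-/- arrays and 8229.5 to 10903 on the stimulated wild type arrays, and their part was not tested. At 45 min over 3 arms 0 were higher (0.891% of all tested genes) and 0 lower (1.06%), with 7 at an unadjusted p under 0.05, and Hspa1a was 0.55 higher on the log2 scale (adjusted p = 0.0659). With LPS at 180 min (1 IL-6-/- array) the counts were 0 and 0 (0.0495% and 0.0825% of all tested genes; 1 at an unadjusted p under 0.05), and with IL-10 at 180 min 0 and 0 (0.066% and 0.115%; 1 at an unadjusted p under 0.05).

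Genes that work with the heat shock proteins were taken as 4 lists. The first list was of heat shock factors and cytosolic co-chaperones. Its heat shock factors, Hsf2 and Hsf4, were at most 91.7 and 91.3 on any array, so no heat shock factor was tested. Of its 20 tested genes, 2 rose and 1 fell in wild type cells at 45 min and 4 rose and 2 fell at 180 min. Over all tested genes 9.27% were higher and 8.38% lower at 45 min, and 14.6% higher and 21.3% lower at 180 min, and the 3 lists that follow are read against the same shares. Stip1 (HOP), which hands clients from HSP70 to HSP90, was 199 to 437 at rest, 344 and 304 at 45 min and 1813 and 1661 at 180 min (log2 2.32, adjusted p = 4.80e-07), and it also rose from 45 to 180 min in wild type (log2 2.26, adjusted p = 1.62e-05) and in IL-10-/- cells (1.91, adjusted p = 1.39e-04). Bag3, an HSP70 nucleotide exchange factor, was 160.2 to 236 at rest, 436 and 514 at 45 min and 949 and 869 at 180 min (log2 1.17 and 2.04). Ppid, a cyclophilin partner of HSP90, also rose at both times (log2 0.66 and 0.72), Vbp1, a prefoldin subunit, at 180 min (0.90), and Unc45a fell at 180 min (-1.13). Bag3 and Ppid met the limit for testing only with stimulated arrays counted, so their places among the rises are no support for a change. IL-10, in the mean of 3 genotypes, called 0 of these 20 by limma at either time, with 0 at 45 min and 1 at 180 min at an unadjusted p under 0.05. Of all tested genes 0.808% were higher and 0.363% lower with IL-10 at 45 min, and 2.34% and 1.96% at 180 min. A count of 0 of 20 lies near those shares.

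Of 21 tested genes of endoplasmic reticulum folding and the unfolded protein response, 4 rose and 1 fell at 45 min (9.27% and 8.38% of all tested genes) and 6 rose and 1 fell at 180 min (14.6% and 21.3%). Ppp1r15a (GADD34), which directs dephosphorylation of eIF2alpha, was 217 to 472 at rest, 2296 and 2354 at 45 min and 464 and 512.5 at 180 min (log2 2.67 and 0.53), and was higher in IL-10-/- than wild type cells at 180 min (0.88, adjusted p = 0.0378). Serpinh1, the collagen chaperone, rose by log2 2.68 and 2.66 beside the stromal markers, whose part was not tested. Serpinh1 was 20 to 56.6 on the resting arrays and was tested only through stimulated arrays. Its place among the rises is thus no support for a change. Herpud1 and Atf4 rose at both times (log2 0.89 and 0.76 at 45 min), Ero1a, an oxidase of this compartment, at 180 min (1.43), and Sec61b fell (-1.15 and -1.07).

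Of 16 tested genes of mitochondrial folding and import, 0 rose and 2 fell at 45 min (Clpp, a matrix protease, by log2 -1.10, and Timm44 by -0.77). At 180 min 3 rose, led by the receptor Tomm70a (0.94), and 1 fell, the protease subunit Clpx (-1.60). Over all tested genes 9.27% were higher and 8.38% lower at 45 min, and 14.6% were higher and 21.3% lower at 180 min. The list's shares lower at 45 min and higher at 180 min were not far from these. Its shares higher at 45 min and lower at 180 min were below them. Clpx reached the limit for testing only on resting arrays (292.5 and 210.1), and no stimulated array exceeded 156.8. Clpx was thus tested only through the group where it is high, and its fall is no support for a change. Of 12 ubiquitin and oxidative stress genes, 4 rose and 1 fell at 45 min (9.27% and 8.38% of all tested genes) and 6 rose and 1 fell at 180 min (14.6% and 21.3%). The metallothionein Mt2 was 1640.2 to 5335 at rest and 43751 and 58262 at 180 min (log2 4.12). With IL-10 at 180 min, in the mean of 3 genotypes, Mt1 (1.30, adjusted p = 4.64e-06) and Mt2 (0.87) rose and Sqstm1, the autophagy receptor p62, fell (-0.81, adjusted p = 5.07e-06). At 45 min Mt1 and Mt2 rose with IL-10 (log2 1.66 and 2.03) and with IL-6 (1.12 and 1.42), and Sqstm1 and Nfe2l2 fell with IL-10 (-0.44 and -0.57). With LPS at 180 min, IL-10-/- arrays had lower Mt1 and Mt2 than wild type (-2.33, adjusted p = 1.14e-06, and -1.98, adjusted p = 2.70e-04).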

How the data were processed

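RNA from mouse BMDMs was measured on 34 single-colour Affymetrix arrays. The authors deposited 1 linear signal intensity per probe set and array, made with MAS5 per the submitters' processing notes; the 2%-trimmed mean of each array was 500.29 to 500.4, as checked from the values. The authors' scaling assumes a like average signal on every array. Groups came from the labels, and 2 arrays with no settled group were left out. Of 12488 probe sets, 66 controls were left out and 8224 with a signal of at least 200 on at least 2 of 32 grouped arrays were tested. Symbols came from the array's annotation table (10855 probe sets with 1 symbol, 396 with several, 1237 not listed). limma 3.58.1 (R 4.3.3) was fitted to log2(signal + 50) with 1 mean per group over all 16 groups, which share 1 estimate of spread (16 residual degrees of freedom), with a trend in eBayes. A call is a Benjamini-Hochberg adjusted p under 0.05 over all tested probe sets. The code was tested on simulated data.

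The members and lists were chosen with earlier results of these data known, and 7 of 23 comparisons were added after the data had been seen. Described members are the HSP70, HSP90, HSP110, HSP60/HSP10 and HSPB families, Dnaja1, Dnajb1, Dnajb9, Dnajb11, Dnajc3 and the CCT subunits, with up to 6 of the largest rises and 6 falls that passed in each comparison, and up to 4 genes per pathway list. Alternatives were other pseudocounts (10, 200), filters (none, 500), quantile normalization, no trend, the mean of a gene's probe sets, a replicate block, and leaving out each array.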

Additional observations from a re-analysis of the deposited data

Results flagged for a closer look

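Of 51 members tested for a resting array far from the other three, 3 had one, and chance alone marks about 1 group in 20. Cct4 was 3490.3 in resting replicate 2 and 1947.5 to 2161.8 in the others. Dnajc17 was 1008.1 in resting replicate 4 and 274.1 to 399 in the others. Dnajc2 was 600.6 in resting replicate 4 and 424.4 to 448.7 in the others. The effect of IL-10 on Hspa1b differed between times, by -1.29 on the log2 scale at 180 min relative to 45 min (limma, adjusted p = 0.00683).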

How the results depend on the processing

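Among 74 calls of single members, the direction turned in 1: Hsp90aa1 from 45 to 180 min in wild type cells was -0.064 with the mean of all probe sets. Calls lost were 14 of 74 with no filter, 14 with that mean, 6 without a variance trend, 4 with quantile normalization and 2 with either other pseudocount; leaving out 1 array lost 118 of 732. Counts of called members moved as follows. From 45 to 180 min, wild type gave 1 with no filter, 2 with the mean of probe sets and 0 to 4 with 1 array left out, and IL-10-/- gave 4 with no filter and 3 to 4. LPS against rest at 45 min gave 7 to 14 with 1 array left out (7 without wild type 45-min replicate 2 and 8 without replicate 1). IL-10 at 45 min gave 1 to 2 in the mean, 0 to 1 in wild type, and in IL-10-/- 0 with quantile normalization and 0 to 0 with 1 array left out. The response difference gave 1 with a pseudocount of 200, 1 with a filter at 500, 1 without a trend, 1 with the mean of probe sets and 0 to 1 with 1 array left out. IL-10 against IL-6 gave 1 with the mean of probe sets. IL-10-/- against wild type at 180 min gave 1 to 2 with 1 array left out, and IL-6-/- against wild type at 45 min gave 1 with a pseudocount of 200 and 0 to 1. The causes were not tested. Residuals (what the group means leave) of same-numbered arrays were compared between groups. They correlated at 0.02 to 0.299 in wild type, 0.038 to 0.207 in IL-10-/- and 0.148 to 0.441 in IL-6-/- cells. All were above 0, and 7 of 10, 3 of 10 and 3 of 3 pairs of groups, in that order, were over 0.1. The main fit did not take the numbers as pairs, so any effect shared by a replicate number stays in its spread. With a replicate block, IL-10 at 180 min in IL-6-/- cells gave 1 call, Hspa1b (log2 -1.49, adjusted p = 0.046). The block also added Hspa8 with IL-10 at 180 min (0.53, adjusted p = 0.0261), Hspa5 from 45 to 180 min in wild type (0.57, adjusted p = 0.0217), Hspe1 in IL-10-/- (-0.68, adjusted p = 0.0079) and Dnajc7 with LPS at 45 min (-0.54, adjusted p = 0.0456), and kept 73 of 74 single calls. Signals near or under 200 limit what can be seen for Dnajb4, Dnajb2 and Hspb1.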

Other observations

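The 2 arrays whose labels did not settle a group are given as values only. The array titled for LPS at 45 min with no genotype had a signal of 705.5 for Hspa1a and 700.9 for Hspa1b. The IL-6-/- array whose title and protocol give different times (45 and 180 min) had 756.1 for Hspa1a, 1592.9 for Hspa1b, 14278.5 for Hspa8, 11844.4 for Hspa5 and 114.1 for Dnajb4.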
